A study of Mus musculus with 38 samples.

Results

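The 8 B lineage genes, Ebf1, Pax5, Cd79a, Cd79b, Igll1, Vpreb1, Blnk and Pou2af1, were examined for binding of RUNX1, CTCF, Med12, p300 and Notch1-IC in Ebf1-deficient lymphoid progenitors. A peak was taken when its centre lay from 50 kb before to 50 kb after the body of one of the 8 genes in mm10, a stretch called a window here, out of 21911 windows of protein-coding genes. These windows held 405 of the 359759 peaks in the 17 deposited lists, with a peak in 2 windows counted 1 time. All cells were of the Cas9-LP line, made from fetal liver progenitors of Ebf1-deficient mice with Cas9 knocked in at Rosa26, so every group below, controls included, lacked Ebf1 and carried Cas9. LP cells were kept on OP9 stroma, which gives no Notch ligand. Phase 1 cells had been moved to OP9-DLL4, which does, and Phase 2 was a later stage profiled for Notch1-IC alone. Guides were introduced against Ctcf in LP cells (sgCTCF), and against Cbfb or Med12 in Phase 1 cells (sgCbfb, sgMed12), each beside a control guide (sgCont). Each of the 17 lists combined 2 replicates, 34 ChIP samples in all with 4 input samples beside them, so no spread between cultures could be computed and no test was run. The intervals given are 95% Wilson intervals that cover counting error only. The extent of the Ebf1 deletion was not given in the sources used here.

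EBF1 and PAX5 are the transcription factors that specify and then commit B cell precursors, and EBF1 is known to switch on Pax5 and the genes of the precursor B cell receptor. Igll1 and Vpreb1 encode the surrogate light chain that pairs with the immunoglobulin heavy chain, Cd79a and Cd79b the signaling chains of the receptor, Blnk the adaptor that links it to downstream kinases, and Pou2af1 the coactivator OBF-1. RUNX1 binds DNA with its partner CBFb, CTCF shapes chromatin loops, Med12 is a subunit of the Mediator kinase module, p300 is a histone acetyltransferase found at active enhancers, and Notch1-IC is the part of Notch1 that enters the nucleus after ligand binding.

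The sites on which the description turns are printed first, as 200 bases of the GRCm38.p6 plus strand around the centre of a RUNX1 peak, with the distance from the start of the gene. They are the highest-scored RUNX1 sites inside Ebf1, Pax5 and Blnk, the highest-scored Phase 1-specific RUNX1 sites of Ebf1 and Pax5, and the leading or nearest RUNX1 sites of Pou2af1 and Igll1. Capitals mark matches on either strand to a RUNX string (TGTGGTT or TGCGGTT) or its core (TGTGGT or TGCGGT, chosen after the shares of the longer string had been seen), to an E box (CAGCTG or CAGGTG) and to the CTCF core consensus.
Ebf1 264 kb site, chr11:44881409-44881608: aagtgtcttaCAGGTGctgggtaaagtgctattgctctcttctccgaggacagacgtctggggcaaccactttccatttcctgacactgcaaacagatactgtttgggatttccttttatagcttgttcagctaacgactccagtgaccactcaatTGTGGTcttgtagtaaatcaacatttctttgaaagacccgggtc
Ebf1 308 kb site, chr11:44924998-44925197: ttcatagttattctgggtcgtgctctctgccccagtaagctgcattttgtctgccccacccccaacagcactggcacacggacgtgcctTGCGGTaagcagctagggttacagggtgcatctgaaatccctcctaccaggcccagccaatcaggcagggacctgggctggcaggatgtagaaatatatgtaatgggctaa
Pax5 37.7 kb site, chr4:44672730-44672929: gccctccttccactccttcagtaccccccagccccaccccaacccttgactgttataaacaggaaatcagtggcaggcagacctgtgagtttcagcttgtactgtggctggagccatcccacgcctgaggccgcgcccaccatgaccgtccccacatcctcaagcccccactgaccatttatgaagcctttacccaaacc
Pax5 35.3 kb site, chr4:44675057-44675256: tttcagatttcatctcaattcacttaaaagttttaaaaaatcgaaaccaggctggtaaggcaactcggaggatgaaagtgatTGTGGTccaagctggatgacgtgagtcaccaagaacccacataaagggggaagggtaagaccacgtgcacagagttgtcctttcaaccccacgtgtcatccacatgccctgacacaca
Igll1 -1.42 kb site, chr16:16865310-16865509: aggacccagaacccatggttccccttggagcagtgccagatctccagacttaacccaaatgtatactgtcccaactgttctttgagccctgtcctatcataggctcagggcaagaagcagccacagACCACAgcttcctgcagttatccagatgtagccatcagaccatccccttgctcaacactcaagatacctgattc
Blnk 31.3 kb site, chr19:40963100-40963299: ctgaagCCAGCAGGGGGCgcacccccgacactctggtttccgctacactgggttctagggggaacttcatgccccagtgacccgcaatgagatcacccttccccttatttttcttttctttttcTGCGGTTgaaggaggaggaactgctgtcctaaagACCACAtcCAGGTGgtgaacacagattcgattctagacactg
Pou2af1 -47.9 kb site, chr9:51165720-51165919: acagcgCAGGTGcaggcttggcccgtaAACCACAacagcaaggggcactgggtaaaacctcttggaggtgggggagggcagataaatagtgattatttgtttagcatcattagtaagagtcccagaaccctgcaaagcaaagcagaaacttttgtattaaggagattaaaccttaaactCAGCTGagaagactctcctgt

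The Ebf1 264 kb site held an E box and a RUNX core around the LP peak centre, and an E box alone around the Phase 1 centre. The Pax5 37.7 kb site held none of the strings searched. The Blnk 31.3 kb site was the only one of the 7 printed that held the CTCF core consensus, together with a RUNX string and an E box. Over all windows, a RUNX string lay in the 200 bases around the centre of 2 of 39 LP RUNX1 peaks (5.13%, 1.42 to 16.9). For Phase 1 the count was 4 of 42 (9.52%, 3.77 to 22.1). Over all RUNX1 peaks of those lists the shares were 21.2% and 25.4%. The core, which is the first 6 of those 7 bases and so is met by every match to them, was found at 9 of 39 LP peaks (23.1%) and 12 of 42 Phase 1 peaks (28.6%), against 42.0% and 47.6% in the whole lists. An E box, the string bound by E proteins such as E2A, was found at 18 of 39 LP peaks (46.2%, 31.6 to 61.4) against 33.2% of the list. In Phase 1 it was found at 16 of 42 peaks (38.1%, 25.0 to 53.2) against 30.2%. Both list shares lay inside the intervals. No EBF string (TCCC and GGGA 2 bases apart) lay at any of the 39 LP or 42 Phase 1 peaks, and 0.369% and 0.552% of all RUNX1 peaks held one. The same was true of the RBPJ string (GTGGGAA), present at 4.23% and 5.28% of the lists. The PU.1 string (GAGGAAGT) lay at 1 peak of each stage, against 9.02% and 8.62%.

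Every one of the 8 windows held RUNX1, Med12 and p300 peaks at both stages. Over all coding genes, a RUNX1 peak lay in 75.3% of windows in LP and 77.9% in Phase 1, a Med12 peak in 74.9% and 78.9%, and a p300 peak in 76.6% and 80.8%. LP RUNX1 peaks numbered 11 at Ebf1, 8 at Blnk, 6 in the overlapping windows of Igll1 and Vpreb1, 5 at Cd79a, 4 at Pax5, 3 at Cd79b and 2 at Pou2af1. In Phase 1 the counts were 10, 8, 5, 6, 5, 4 and 4 in the same order. Per 100 kb of window, the 8 genes ran from 1.40 RUNX1 peaks at Pax5 to 5.86 at Vpreb1 in LP, with a median of 3.84 against 2.19 over all coding genes. In Phase 1 they ran from 1.75 to 5.72, with a median of 4.35 against 2.64. Igll1 and Vpreb1, whose windows held the same peaks, entered these medians as 2 genes. With their windows counted 1 time, the middle value was that of Cd79b, 2.9 in LP and 3.87 in Phase 1. The window of Pou2af1 held no CTCF peak in either stage, while the other 7 held 5 to 10 in LP and 6 to 8 in Phase 1. The CTCF peaks nearest to the Pou2af1 start lay 51.8 kb before it, just outside the window, with a score of 197.5 at both stages. Of all coding genes, 86.6% had a CTCF peak in the window in LP and 86.5% in Phase 1. Peaks of all lists in the windows chained into 101 sites, of which 48 held RUNX1 and 48 held CTCF in at least 1 stage. The centres of 42 of the 101 sites lay inside the body of one of the 8 genes, 24 of them in Ebf1 and 13 in Pax5. The deposited annotation, which names the gene of the nearest transcript start with noncoding transcripts included, named one of the 8 genes for 34 sites, so a site inside a member could carry the name of another gene.

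Peaks at the starts of the 8 genes were counted beside those of all coding genes. An LP RUNX1 peak centre lay within 1 kb of the annotated start at 3 of 8 genes, Ebf1, Vpreb1 and Blnk, beside 45.2% of all coding genes, and the same 3 genes had one in Phase 1, beside 45.9%. For p300 the count was also 3 of 8 at both stages, beside 46.6% of coding genes in LP and 47.2% in Phase 1. Med12 peaks lay at 2 of 8 starts, those of Ebf1 and Vpreb1, at both stages, beside 44.7% in LP and 44.4% in Phase 1. A CTCF peak lay at 1 of 8 starts, that of Vpreb1, beside 22.2% in LP and 21.1% in Phase 1. With the starts RefSeq gives added, LP CTCF was counted at Ebf1 too, with a score of 18.7, and no other count rose. At the start of Ebf1 the peak scores, the authors' measure of peak height on a scale on which no deposited peak is under 15, were 54.6 for RUNX1, 54.3 for Med12 and 60.0 for p300 in LP, and 49.0, 30.7 and 50.8 in Phase 1. At Blnk, RUNX1 (33.0 and 21.7) and p300 (32.8 and 19.4) lay at the start, while the nearest Med12 peaks lay 1.25 kb before it in LP and 1.22 kb in Phase 1. The Vpreb1 start in GENCODE coincides with the promoter of Top3b, a topoisomerase gene read in the opposite direction, and the deposited annotation gave the RUNX1 peaks there (92.7 and 110.1) to Top3b. The RefSeq start of Vpreb1 lies further inside, at position 16869255 of chromosome 16. The RUNX1, CTCF, Med12 and p300 peaks counted for Vpreb1 had their centres more than 1 kb from it. Vpreb1 was thus counted by its GENCODE start alone, and adding starts could not lower a count. The nearest RUNX1 peaks of the remaining 5 genes lay 1.42 kb (Igll1), 5.91 kb (Pax5), 6.92 kb (Cd79a), 8.78 kb (Cd79b) and 47.9 kb (Pou2af1) from the start in LP.

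Ebf1 (chromosome 11, 44617317 to 45008091, plus strand) had the longest window, with no other coding gene starting in it. Its leading site was intronic, 264 kb downstream of the start. In LP the scores there were 192 for RUNX1, 226 for Med12 and 525 for p300, at the 93.9, 96.1 and 99.1 percentiles of their lists. In Phase 1 they were 74.4, 57.5 and 135, at the 69.5, 65.5 and 85.4 percentiles. The percentile is the share of peaks of the same list with a lower score, so it places a peak among the other peaks of its own library and does not compare signal between lists. No CTCF peak lay at the 264 kb site. It carried the only Notch1-IC peak in any of the 8 windows, which was in the LP list with a score of 19.4, and neither the Phase 1 nor the Phase 2 Notch1-IC list held a peak in the windows. Over all coding genes, 11.9% had a Notch1-IC peak in the window in LP, 1.62% in Phase 1 and 2.67% in Phase 2.

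At 308 kb, in a later intron, RUNX1 (57.3), Med12 (62.4) and p300 (115) had peaks in Phase 1 and none in LP. There were 3 LP RUNX1 peaks in the window without a Phase 1 counterpart, at 282 kb (27.7), 285 kb (17.9) and the 3′ end of the gene at 391 kb (24.0). The last of these lay on a CTCF site that was present in both stages, with scores of 214 in LP and 219 in Phase 1. A second strong CTCF site lay 6.28 kb before the gene (250 and 242) with RUNX1 peaks of 20.4 and 15.7, so that in LP a low-scored RUNX1 peak lay on a strong CTCF site at each end of the gene. Phase 1 lists held 7 Med12 and 12 p300 peaks of the window without LP counterparts, most of them in introns. In the other direction, 3 Med12 and 7 p300 peaks of LP had none in Phase 1, the highest being p300 at 332 kb (49.2) and Med12 at 285 kb (19.3). A Phase 1 p300 peak of 46.7 lay next to the 332 kb peak, at 331 kb, without overlapping it. Each of this pair was therefore counted as specific to its stage, while RUNX1 and Med12 had peaks at 332 kb at both stages.

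**Figure D1:**
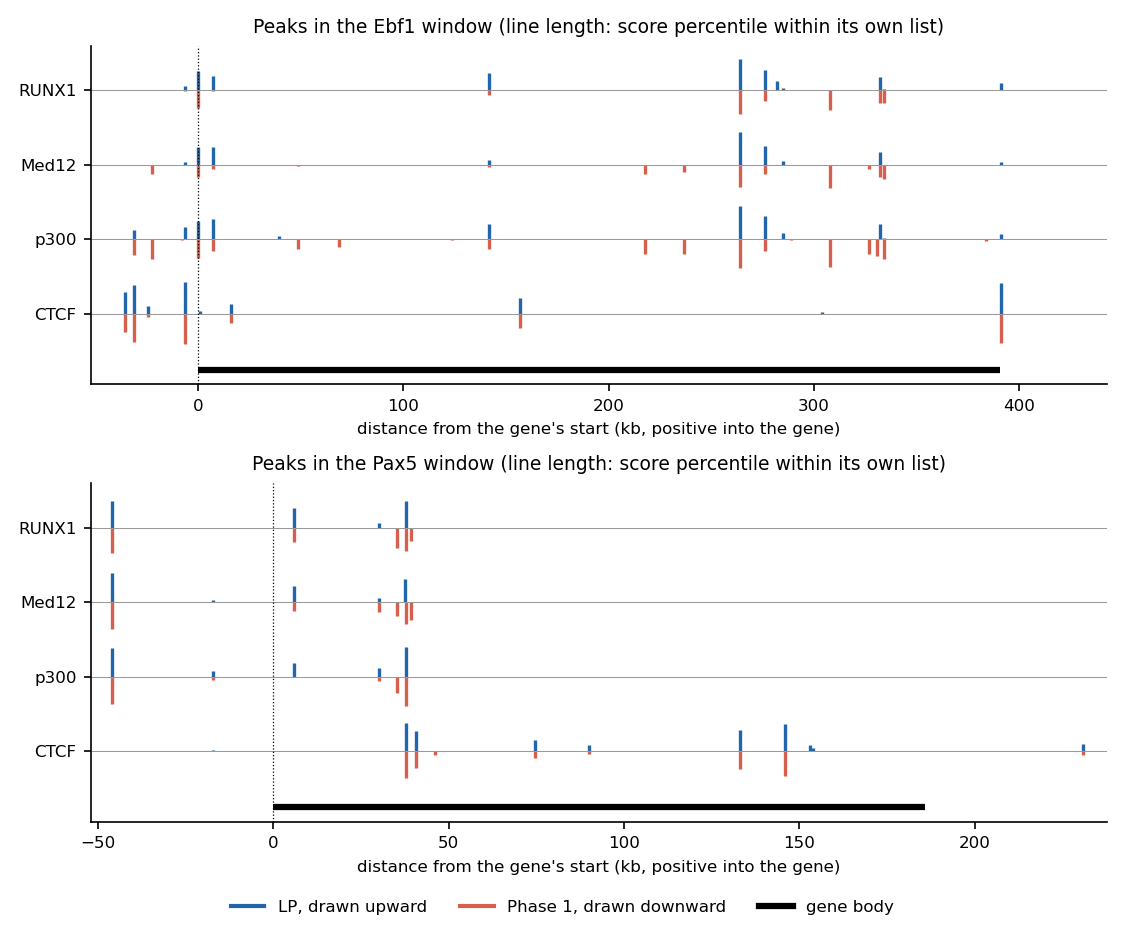
Peaks in the windows of Ebf1 and Pax5 by distance from the start of the gene in kb, with 1 row for each factor, where lines point up for LP and down for Phase 1, and their length is the percentile of the peak's score within its own list. The Ebf1 264 kb site has the longest RUNX1 line of its window in LP, and the Phase 1 line at 308 kb has no LP line above it.

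Pax5 (chromosome 4, 44524757 to 44710487, minus strand) had its leading site inside the gene in intron 5, 37.7 kb after the start, where RUNX1, CTCF, Med12 and p300 peaks met at both stages. The LP scores were 99.1 for RUNX1, 176 for CTCF, 78.3 for Med12 and 182 for p300, and the Phase 1 scores were 77.4, 165, 56.7 and 161. The RUNX1 peak stood at the 77.9 percentile in LP and the 70.8 percentile in Phase 1, and the p300 peak at the 88.9 and 89.0 percentiles. On each side of it a RUNX1 peak appeared in the Phase 1 list alone, at 35.3 kb (RUNX1 56.8, Med12 33.3, p300 43.3) and at 39.3 kb (RUNX1 35.4, Med12 43.1, no p300). An LP RUNX1 peak in intron 4, at 30.1 kb (21.3), had no Phase 1 counterpart, although Med12 and p300 peaks lay there at both stages. The remaining RUNX1 sites were at 5.91 kb, in a noncoding RNA (57.4 and 36.3), and 46.0 kb before the gene, at the promoter of Zcchc7 (102 and 87.2). CTCF had 10 peaks in LP and 8 in Phase 1, all but 1 inside or after the gene, with 3 in the LP list alone and 1 in the Phase 1 list alone. The highest Med12 score of the LP window, 139, was at the Zcchc7 promoter.

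The 9 sites in the window of Igll1 (chromosome 16, 16860671 to 16863985, minus strand) were the same as those of Vpreb1 (16868403 to 16870843, minus strand). The site 1.43 kb before Igll1 had RUNX1 scores of 138 in LP and 178 in Phase 1, Med12 scores of 99.0 and 131, and p300 scores of 372 and 393, with no CTCF. The p300 peak stood at the 97.7 percentile in LP and 98.3 in Phase 1, and the RUNX1 peak at 87.6 and 92.3. Of 5 RUNX1 peaks shared by the stages, 4 stood at a higher percentile in Phase 1, as did 4 of 5 Med12 peaks. Of 6 shared p300 peaks, 2 stood at a lower percentile in Phase 1. With both stage lists cut to the same number of highest-scored peaks, 3 of 4 RUNX1 peaks were still higher in Phase 1. In the cut lists 2 of 3 Med12 and 5 of 5 p300 peaks were lower in Phase 1. The direction for Med12 and p300 thus turned with the length of the lists. No Med12 or p300 peak of this window was specific to a stage. The only stage-specific RUNX1 peak was in LP, 8.93 kb after the start of Igll1 and beyond its 3′ end (16.2), and lay on a CTCF site present in both stages (177 and 171). The surrogate light chain gene Vpreb2, a near copy of Vpreb1 elsewhere on the chromosome, had 3 RUNX1 peaks in its own window in LP and 4 in Phase 1. The highest CTCF scores of the window, 241 and 290, were at the promoter of Ppm1f. Reads that map to both copies cannot be told apart, and no peak of the lists lay in the Vpreb1 body away from the Top3b promoter.

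Cd79a (chromosome 7, 24897381 to 24902197, plus strand) and Cd79b (chromosome 11, 106311341 to 106314762, minus strand) had strong sites in their windows, but the strongest lay at the promoters of neighbors. None of the 11 sites of the Cd79a window had Cd79a as its nearest gene. The highest RUNX1 scores, 235 in LP and 235 in Phase 1, were at the promoter of the ribosomal protein gene Rps19, where Med12 (375 and 220) and p300 (238 and 249) were highest too. The highest CTCF peak, 258 and 341, lay at the 3′ end of Rps19. A Phase 1-specific RUNX1 peak (71.5) lay 5.62 kb after the Cd79a start at a promoter of Arhgef1, where Med12 (83.2 and 72.8) and p300 (77.9 and 72.9) were present at both stages. At -44.3 kb, Med12 (58.2) and p300 (69.9) were in the LP lists and not in the Phase 1 lists of cells without guides, while RUNX1 (61.3 and 34.6) was in both. The sgCbfb Med12 list of Phase 1 cells held a peak there (34.1). In the Cd79b window the highest RUNX1 scores, 349 and 358, were at the promoter of Smarcd2, a chromatin remodeling subunit gene, together with the highest Med12 (481 and 432) and p300 (512 and 553). An LP-specific p300 peak of 124 lay in the first intron of Smarcd2. A Phase 1-specific site lay 37.4 kb before Cd79b (RUNX1 51.8, Med12 45.8, p300 55.9), and a second Phase 1-specific RUNX1 peak had a score of 15.9 at -19.5 kb. At -19.5 kb, Med12 (28.5) and p300 (30.2) had peaks in LP and none in Phase 1. The LP-specific RUNX1 peak of the window lay at 8.79 kb (17.8) with Med12 (18.8) and without p300. Between them, at -14.6 kb, RUNX1 scores were 37.4 in LP and 19.0 in Phase 1 and p300 scores 85.1 and 43.6, at a distance of less than 1 kb from a CTCF site (254 and 272).

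Blnk (chromosome 19, 40928927 to 40994535, minus strand) kept all 8 of its RUNX1 peaks and all 9 of its p300 peaks between the lists of both stages. Its leading site inside the gene was 31.4 kb after the start, with scores of 122 and 115 for RUNX1, 284 and 222 for CTCF, 131 and 109 for Med12 and 199 and 110 for p300 in LP and Phase 1. Stronger sites of the window belonged to Dntt, the gene of terminal deoxynucleotidyl transferase, which is active in precursor B and T cells. In an intron of Dntt, RUNX1 scores were 237 and 180 and p300 scores 690 and 355, and 6.83 kb before its start p300 scores were 372 and 265. The highest CTCF scores, 285 and 340, lay 22.0 kb before Blnk. Stage-specific Med12 peaks lay side by side before the gene, at -4.09 kb in LP (41.1) and at -4.56 kb in Phase 1 (30.4).

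Pou2af1 (chromosome 9, 51213708 to 51240080, plus strand) had 2 RUNX1, 2 Med12 and 2 p300 peaks in LP, all outside the gene body. They lay 47.9 to 48.0 kb before the start or 60.3 kb after it, in an intron with Colca2 as the nearest gene. The RUNX1 scores there were 41.6 and 26.2 in LP and 53.1 and 26.9 in Phase 1. Phase 1 lists added 2 RUNX1, 3 Med12 and 4 p300 peaks. They lay at -38.6 kb (p300 alone, 29.8), at -36.2 kb (RUNX1 20.2), in intron 1 at 1.82 kb (Med12 16.8, p300 27.4) and at the 3′ end at 25.3 kb (RUNX1 29.5). No peak of this window was in an LP list alone.

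**Figure D2:**
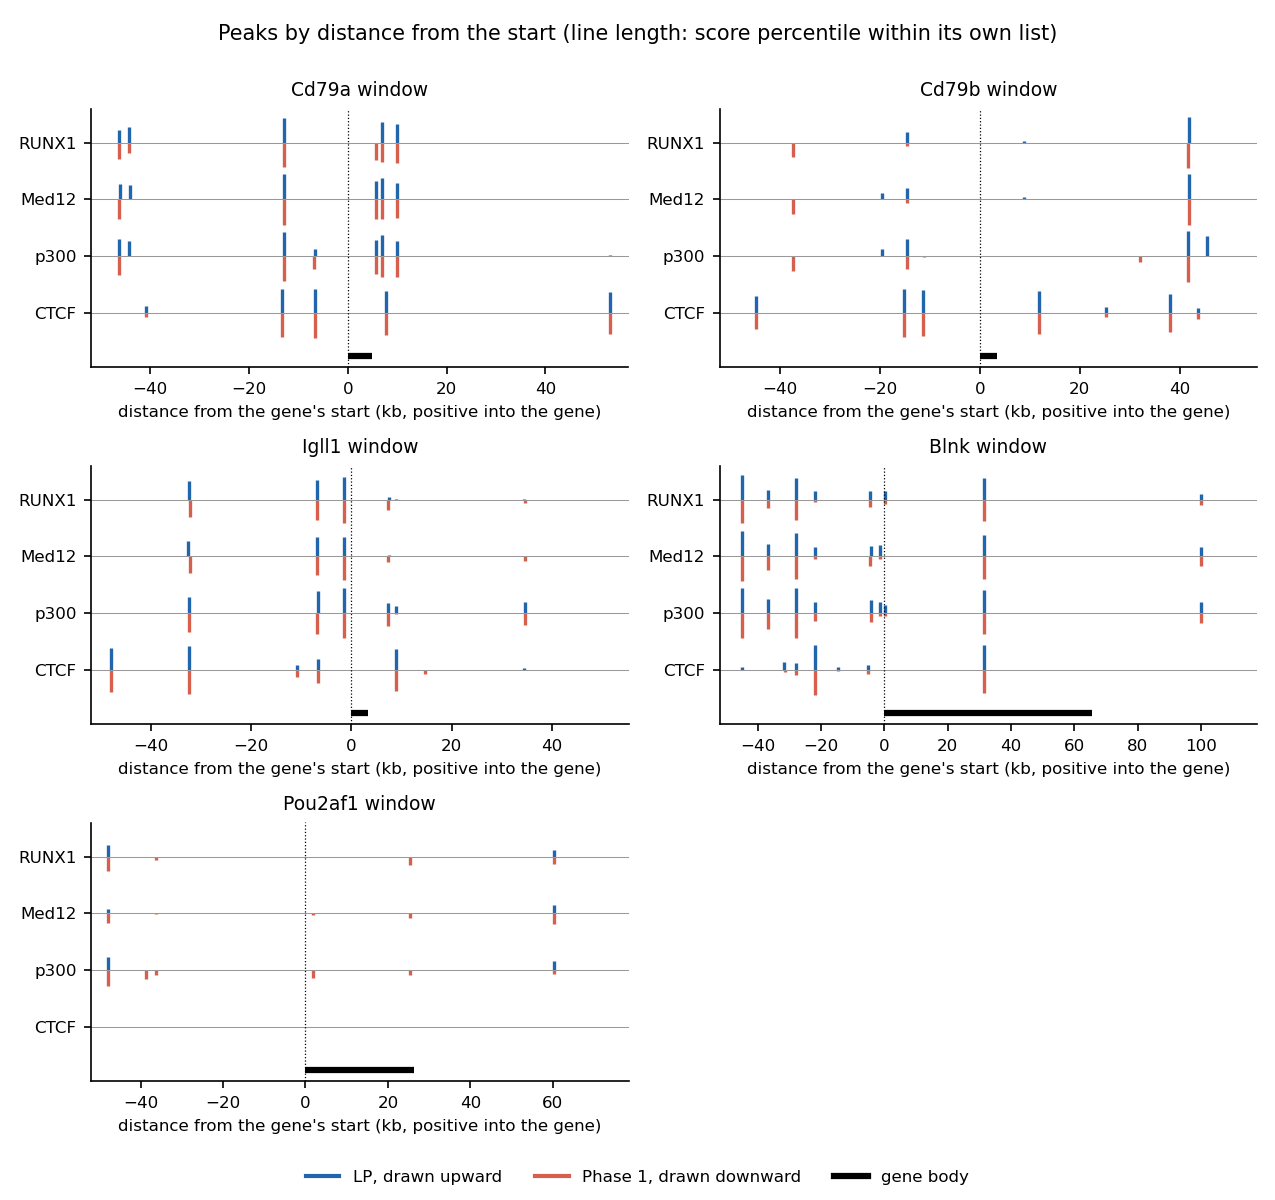
Peaks in the windows of Cd79a, Cd79b, Igll1, Blnk and Pou2af1 by distance from the start in kb, drawn upward for LP and downward for Phase 1, with line length the percentile of the score within its own list. The Vpreb1 window holds the same sites as that of Igll1, and the CTCF row of Pou2af1 is empty. The nearest CTCF peaks of Pou2af1 lay 51.8 kb before its start, outside the window.

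Between the stages, the share of peaks without a counterpart was counted for each factor over all windows. Of 39 LP RUNX1 peaks, 6 had no Phase 1 RUNX1 peak (15.4%, 7.25 to 29.7), against 16.8% of the list, and of 42 Phase 1 RUNX1 peaks, 9 had none in LP (21.4%, 11.7 to 35.9), against 30.7%. The 6 LP-specific RUNX1 peaks scored 16.2 to 27.7, with a median of 19.6, where LP-specific peaks of the whole list had a median of 22.8 and shared peaks 56.6. The 9 Phase 1-specific peaks scored 15.2 to 71.5, with a median of 35.4, beside 23.2 for all such peaks. For Med12 the LP-specific share was 8 of 39 (20.5%, 10.8 to 35.5) against 19.5%, and the Phase 1-specific share 14 of 45 (31.1%, 19.5 to 45.7) against 38.2%. For p300 these were 12 of 48 (25.0%, 14.9 to 38.8) against 20.7%, and 20 of 56 (35.7%, 24.5 to 48.8) against 41.6%. For CTCF they were 7 of 45 (15.6%, 7.75 to 28.8) against 9.55%, and 3 of 41 (7.32%, 2.52 to 19.4) against 8.35%. The shares of the whole lists lay inside the intervals of the windows in all 8 counts. The LP-specific shares depended on the lists compared. With both stage lists cut to equal length, they were 30.8% for RUNX1, against 22.3% of the list cut in the same way, and 38.5% for Med12, against 27.4%. With a minimum score of 30 in both stages, the LP-specific share was 29.6% (15.9 to 48.5) for RUNX1 against 13.9% of the list, 33.3% (20.6 to 49.0) for p300 against 18.9%, and 16.7% (7.34 to 33.6) for CTCF against 6.66%, so that these 3 list shares lay below the intervals. In the full lists the LP-specific RUNX1 and CTCF peaks of the windows scored at most 27.7 and 25.0. So at this cut the RUNX1 and CTCF counts held only peaks found at both stages whose Phase 1 peak scored under 30. The p300 count also held peaks without any Phase 1 counterpart, which scored up to 124. Ebf1 alone gave 12 of the 20 Phase 1-specific and 7 of the 12 LP-specific p300 peaks. Without the Ebf1 window these p300 shares were 21.6% (11.4 to 37.2) in Phase 1, with the list share of 41.6% above the interval, and 14.7% in LP.

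**Figure D3:**
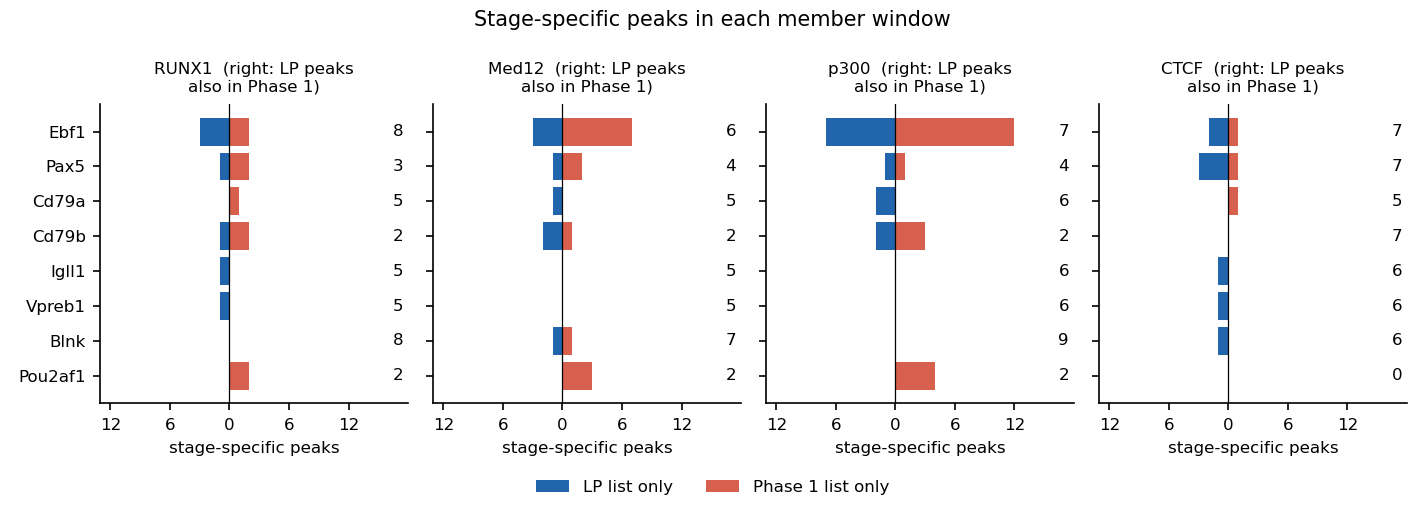
Number of peaks found in the LP list alone (bars to the left) or the Phase 1 list alone (bars to the right) in each window, by factor. The number at the right of each row is the count of LP peaks with a Phase 1 counterpart. Ebf1 has the most stage-specific Med12 and p300 peaks, and Pou2af1 has stage-specific peaks in Phase 1 alone.

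For peaks found at both stages, the percentile in the Phase 1 list was set beside that in the LP list. A percentile is a place in its own list, and the lists differed in length (31995 and 38399 RUNX1 peaks, 30020 and 39132 Med12 peaks, 36182 and 49116 p300 peaks), so a lower percentile is a lower place and was not shown to be a loss of binding. Of the 33 shared LP RUNX1 peaks in the windows, 23 stood at a lower percentile in Phase 1 (69.7%, 52.7 to 82.6). Of the 26610 shared RUNX1 peaks of the genome, 38.2% did. At Ebf1 this held for 7 of 8 RUNX1 peaks, with a median change of -17.6 percentile points, and for 6 of 6 Med12 peaks, with a median of -21.6, while the medians over all shared peaks were 2.59 and 2.88. Of the 7 shared p300 peaks of Ebf1, 4 were lower, with a median change of -13.7, beside a median of 3.07 over all shared p300 peaks. The largest difference of RUNX1 at Ebf1 was at 7.50 kb, at the 41.6 percentile in LP and the 2.60 percentile in Phase 1. The 1 shared RUNX1 peak of Ebf1 with a higher place in Phase 1 was at 334 kb, at the 3.44 and 39.1 percentiles, where p300 stood at the 4.97 and 58.8 percentiles. Blnk had 7 of 8 RUNX1 peaks and Pax5 3 of 3 at a lower percentile in Phase 1, and Pou2af1 had 0 of 2. For Med12 the count over all windows was 18 of 31 (58.1%, 40.8 to 73.6), beside 41.1% of all shared Med12 peaks, which lay inside the interval. For p300 it was 20 of 36 (55.6%, 39.6 to 70.5), beside 35.6%, and for CTCF 30 of 38 (78.9%, 63.7 to 88.9), beside 54.3%. All 7 shared CTCF peaks of Pax5 and all 6 of Blnk were among them. Stage lists were also cut to equal length, a choice made after seeing the data. Then 20 of 27 RUNX1 peaks in the windows were lower in Phase 1 (74.1%, 55.3 to 86.8). The share over the shared RUNX1 peaks of the cut lists, 56.5%, lay inside this interval. The counts were 20 of 24 for Med12 (83.3%, 64.1 to 93.3) beside 59.2% and 27 of 30 for p300 (90%, 74.4 to 96.5) beside 61.3%. For CTCF the count was 29 of 37 (78.4%, 62.8 to 88.6) beside 51.3%. In the cut lists the counts at Ebf1 were 4 of 5 RUNX1 peaks, 4 of 4 Med12 peaks and 6 of 7 p300 peaks, and at Pou2af1 1 of 2 RUNX1 peaks.

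**Figure D4:**
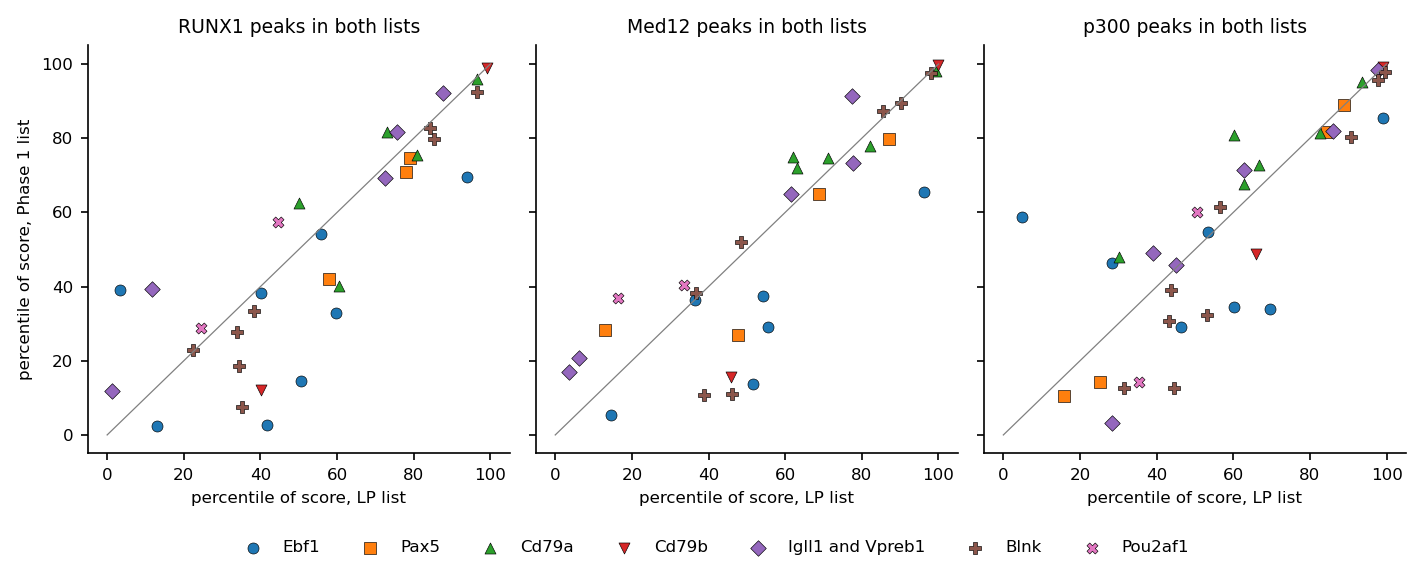
Percentile of the score within the LP list (horizontal axis) and within the Phase 1 list (vertical axis) for each RUNX1, Med12 or p300 peak found at both stages, with 1 marker for each gene window. Most Ebf1 markers lie under the line of equal percentiles, and most markers of Igll1 and Vpreb1 lie on or above it in the RUNX1 and Med12 panels. With lists of equal length 2 of 3 Med12 peaks of Igll1 were lower in Phase 1.

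The partners of RUNX1 in the windows were counted beside those of the whole lists. In LP, 37 of 39 were overlapped by p300 (94.9%, 83.1 to 98.6), against 90.8% of the list, 34 of 39 by Med12 (87.2%, 73.3 to 94.4), against 84.7%, and 11 of 39 by CTCF (28.2%, 16.5 to 43.8), against 23.2%. In Phase 1, 38 of 42 were overlapped by Med12 (90.5%, 77.9 to 96.2), against 86.0%, and 35 of 42 by p300 (83.3%, 69.4 to 91.7), against 87.8%. CTCF overlapped 7 of 42 (16.7%, 8.32 to 30.6), where the list had 15.7%. CTCF lay at 2 of the 6 LP-specific RUNX1 peaks, the 3′ flanks of Ebf1 and Igll1, and at 0 of the 9 Phase 1-specific ones, where the whole lists had 36.8% and 6.96%. A count of 0 of 9 allows a share of up to 29.9% at the upper end of its interval. Med12 lay at 8 of the 9 Phase 1-specific peaks, where the list had 75.0%.

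In cells with guides, made from few cells and described by the study as noisier, the RUNX1 lists were short. The LP lists held 975 (sgCont) and 874 (sgCTCF) peaks genome-wide, and the Phase 1 lists held 1550 (sgCont) and 2094 (sgMed12). They reached the windows at 4 places, each at a neighbor. The LP sgCont and sgCTCF lists both held the Rps19 promoter (21.8 and 21.3) and the Smarcd2 promoter (32.6 and 31.2). The Phase 1 sgCont list held an Arhgef1 intron (20.4) and the Dntt intron (18.6), and the sgMed12 list held the Rps19 promoter (21.7). In LP both of the 2 sgCont peaks were thus in the sgCTCF list, beside 59.1% of all sgCont peaks, and in Phase 1 0 of 2 were in the sgMed12 list, which allows a share of up to 65.8%, beside 71.0%. So 2 of 8 windows held a peak in the LP sgCont list, beside 12.2% of all coding genes. None of these lists had a peak within 1 kb of the start of one of the 8 genes, and the RUNX1 sites inside Ebf1, Pax5 and Blnk had none either.

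The Med12 lists of Phase 1 cells were longer and could be compared site by site. Of 20 sgCont Med12 peaks in the windows, 15 were also in the sgCbfb list (75.0%, 53.1 to 88.8), against 67.8% of the list. Outside promoters 8 of 11 were in both (72.7%, 43.4 to 90.3), against 49.8%, and at promoters 7 of 9 (77.8%, 45.3 to 93.7), against 92.3%. The 5 that were in the sgCont list alone were the Ebf1 264 kb site (29.3), the site 1.43 kb before Igll1 (25.0), 2 Arhgef1 sites in the Cd79a window (43.3 and 42.4) and a promoter at the far end of the Blnk window (20.7). The start of Ebf1 (39.8 and 45.4), Pax5 intron 5 (24.5 and 22.5) and the Blnk intron site (29.6 and 23.0) were in both lists, and Pou2af1 had no peak in either. All 5 sites absent from the sgCbfb list were overlapped by a Phase 1 RUNX1 peak, beside 93.6% of such peaks over the genome, and so were all 15 that were in both lists, beside 94.8%. CTCF overlapped 0 of the 5 and 6 of the 15, beside 13.6% and 27.2%. In the sgCbfb list alone were 7 peaks. Those overlapped by Phase 1 RUNX1 were the Ebf1 7.52 kb site (38.9) and the sites 44.3 kb before Cd79a (34.1) and 14.6 kb before Cd79b (29.1). Those overlapped by CTCF lay at the 3′ end of Rps19 (38.4) and 11.9 kb after (18.5) and 11.3 kb before (21.0) the Cd79b start. The last lay 4.09 kb before Blnk (20.2). Of these 7, 3 were overlapped by Phase 1 RUNX1, beside 38.6% over the genome, and 3 by CTCF, beside 44.5%. A single list, joined from 2 replicates, stood for each guide, so a difference between guides at 1 peak had no replicate check.

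A further 15 genes of the B lineage were counted in the same way, namely Cd22, Cd72, Ms4a1, Vpreb2, Vpreb3, Blk, Btk, Lyn, Syk, Bank1, Spib, Irf4, Fcrla, Bst1 and Cr2. An LP RUNX1 peak lay in 14 of these 15 windows, beside 75.3% of those of all coding genes, and a Phase 1 RUNX1 peak in 14 too, beside 77.9%. The medians were 4.25 and 5.94 RUNX1 peaks per 100 kb, beside 2.19 and 2.64 over all coding genes. Ms4a1, which encodes CD20 of mature B cells, had no peak in any of the 17 lists. Spib, an Ets factor gene, and Syk, the kinase gene of the receptor pathway, had the most LP RUNX1 peaks, with 12 each, and Syk also led in Phase 1 with 11. An LP Notch1-IC peak lay in 7 of these 15 windows, with 3 at Syk. In the main set 1 of the 8 windows (12.5%) had one, beside 11.9% of those of all coding genes.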

How the data were processed

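ChIP-seq peaks of Cas9-LP cells were used as the authors deposited them. Per the labels and the study's methods, the authors aligned reads to mm10 with Bowtie 1.1.1, with settings that can report a read at several places, called peaks with HOMER in its factor style against a control, joined 2 replicates by the irreproducible discovery rate and annotated the result. The deposited value of a peak is its peak score, which the authors normalized, and no file held a score under 15. Read depth was not used here.

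Peaks were assigned by their centre to windows of 50 kb on each side of GENCODE M21 gene bodies, and overlap meant at least 1 shared bp. Python 3.11.15, pandas 2.3.3 and scipy 1.17.1 were used, and the counting was tested on simulated peaks. Strings were searched in GRCm38.p6 and sequences are credited to RefSeq. A promoter sequence of Cd79b was not used here. The genes, lists and naming rule were chosen with earlier results of these data known, and 1 gene of the further B lineage genes is not reported here. Single peaks were named by rule: those within 1 kb of a start, the highest-scored of each window, the highest-scored stage-specific ones, and every Notch1-IC and guide RUNX1 peak. Other sites were added to describe the windows after their values were seen. Alternatives were a minimum score of 30, overlap by at least 50% of the narrower peak, windows of 10 and 100 kb, promoter peaks left out, the Ebf1 window left out and stage lists of equal length.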

Additional observations from a re-analysis of the deposited data

How the results depend on the processing

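The 11 shares of the windows were recomputed under other settings, and 70 of the 74 values obtained stayed inside the interval of the reported share. The other 4 were as follows. With both stage lists of equal length, the LP-specific share was 30.8% for RUNX1 and 38.5% for Med12, in place of 15.4% and 20.5%. An equal length shortens the longer Phase 1 list, and the shares over the cut lists were 22.3% and 27.4%, in place of 16.8% and 19.5%. Without the Ebf1 window, the stage-specific share of p300 was 14.7% in LP and 21.6% in Phase 1. With a minimum score of 30, the LP-specific share of RUNX1 peaks was 29.6% (8 of 27), in the list 13.9%. All 8 had a Phase 1 peak in the full lists, with a score under 30. With lists of equal length, added after seeing the data, the share of shared peaks lower in Phase 1 was 83.3% for Med12 and 90.0% for p300. In place of the RUNX string of 7 bases, the core of 6 bases, chosen after seeing the data, was found at 23.1% of LP and 28.6% of Phase 1 RUNX1 peaks. No paired analysis was possible because each list combines its replicates, and no replicate could be left out for the same reason. The median scores of the stage-specific peaks ran from 17.0 for CTCF in Phase 1 to 35.4 for RUNX1 in Phase 1, and 52 of the 79 were under 30, where the deposited minimum was 15 and the highest was 124. Read depth was not used, so a missing peak was not shown to be missing binding.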
